A study of Homo sapiens with 10 samples.

Results

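The RNA levels of 10 genes of intracellular cholesterol trafficking and storage were followed in the human prostate cancer cell line PC3, with and without an agonist of the liver X receptors (LXRs). The genes were chosen by symbol among the 62656 genes of the deposited table: NPC1, NPC2 and LIPA for export from the lysosome, STARD3, STARD4 and STARD5 for carriage by START domains, GRAMD1A, GRAMD1B and GRAMD1C for carriage from the plasma membrane, and SOAT1 for esterification. All 10 were found, each with 1 entry. PC3 is an established line from a bone metastasis, kept here as 1 line with no genetic change. Cells were starved overnight and then treated for 24 h in RPMI-1640 with L-glutamine, either with DMSO as the vehicle (5 libraries) or with GW3965, a synthetic LXR agonist, at 1 µM (5 libraries). The question addressed was which genes of these cells respond to LXR activation. Nothing states whether the 5 libraries of a group came from separate cultures, so the p-values measure the spread between these libraries, which may be technical.

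Cholesterol taken up with LDL reaches the lysosome as cholesteryl ester. There the acid lipase LIPA frees it, the soluble protein NPC2 binds it and hands it to NPC1, and NPC1 passes it through the lysosomal membrane. START domain proteins and the GRAMD1 proteins (Asters) then move it between membranes, and SOAT1 in the endoplasmic reticulum esterifies what exceeds the need of the cell, for storage in lipid droplets. Sterols in the endoplasmic reticulum hold back SREBP2, the factor that drives cholesterol synthesis and uptake, while oxysterols activate the LXRs, which drive cholesterol efflux.

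The deposited values were RPKM (reads per kilobase of gene, relative to the depth of the library), scaled between libraries by the authors. The reads recovered from them amounted to between 30609158 and 39382779 per DMSO library and between 30428114 and 41635177 per GW3965 library. RNAs of the 7SL family took from 13.7 to 21.5% of these reads with DMSO (median 20.4%) and from 12.0 to 23.2% with GW3965 (median 15.2%). On the first principal component of the reads, which held 41.4% of the variance, DMSO library 1 and GW3965 libraries 1 and 2 stood apart, with scores from 17.7 to 19.7 against at most 3.91 in the other 7 libraries, so results are given without these 3 where they touch them. The label epithelial was checked with markers: the keratins KRT8 and KRT18 lay between 29.8 and 58.5 RPKM and the mesenchymal filament gene VIM between 59.9 and 78.8 RPKM in all libraries, while EPCAM reached 2.16 RPKM and E-cadherin (CDH1) 0.518 RPKM at most. KLK3, which encodes PSA, was at 0 in every library, and the leukocyte gene PTPRC did not exceed 0.0244 RPKM. The LXR targets ABCA1 and ABCG1, which export cholesterol, were higher with GW3965 by 2.29 and 2.13 on the log2 scale (limma, adjusted p = 0.000630 and 0.000124), and all 5 libraries labelled with the agonist were above all 5 DMSO libraries for both genes.

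In DMSO-treated cells the lysosomal pair NPC2 and NPC1 led, with 21.0 ± 2.84 and 15.8 ± 1.23 RPKM (mean ± SD, n = 5). A middle group of 6 genes followed, from LIPA at 6.11 ± 0.432 RPKM to SOAT1 at 3.60 ± 0.295 RPKM. STARD5 and GRAMD1C were lowest, at 0.275 ± 0.0747 and 0.213 ± 0.0493 RPKM. The order of the means was NPC2, NPC1, LIPA, STARD4, STARD3, GRAMD1A, GRAMD1B, SOAT1, STARD5, GRAMD1C. Only 2 steps in this order separated neighbours in all libraries, the one from NPC1 to LIPA and the one from SOAT1 to STARD5. At each of the other 7 steps the ranges over the 5 libraries overlapped, although NPC2 was above NPC1, and GRAMD1B above SOAT1, within each of the 5 DMSO libraries. Levels were compared per length, since RPKM divides reads by gene length.

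**Figure D1:**
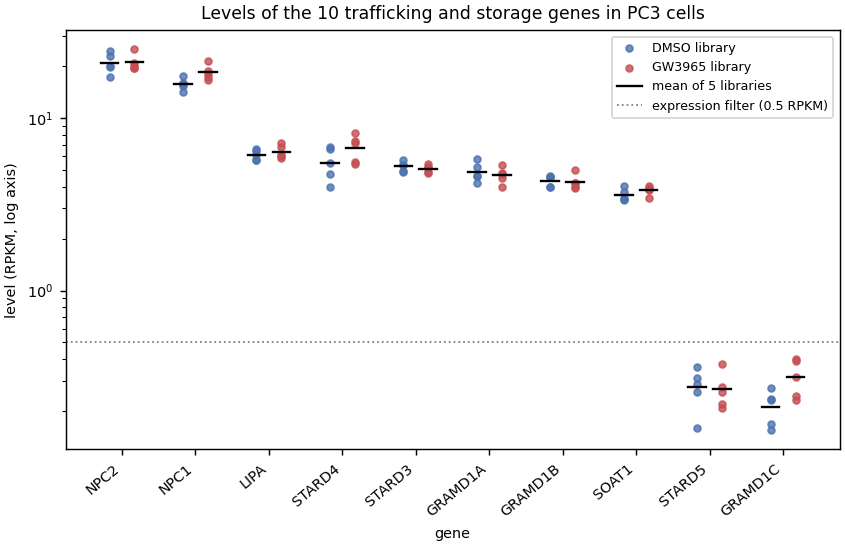
RPKM of the 10 genes on a log axis, 1 point per library (blue DMSO, red GW3965), with the mean of 5 libraries as a black line and the expression filter of 0.5 RPKM dotted. NPC2 and NPC1 lie highest, 6 genes form a middle group between 3.37 and 8.16 RPKM, and STARD5 and GRAMD1C lie under the filter.

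With GW3965, the group of genes stayed near its DMSO levels. Among the 8 members that passed the filter of a mean of 0.5 RPKM, 0 passed the threshold of 0.05 on the adjusted p, where 0.157% of all 20402 tested genes did (limma on log2(RPKM + 0.1)). Without adjustment, 1 of the 8, NPC1, had a p under 0.05, against 6.99% of all tested genes. In 0 of the 8 did the libraries of the groups not overlap, against 1.84% of all tested genes. Beside shares this small, a count of 0 among 8 genes cannot tell the members from other genes. The difference was positive in 5 of the 8, with a median log2 fold change of 0.04, beside a median of 0.003 and a positive share of 51.1% over all tested genes.

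The 95% intervals bounded the differences. Their upper ends lay between 1.07-fold for STARD3 and 1.57-fold for STARD4, and the lowest of the lower ends was 0.824-fold, for GRAMD1A. ABCA1, with an interval from 3.59- to 6.65-fold, and ABCG1, with one from 3.49- to 5.46-fold, lay above all of them. These folds were taken on the log2(RPKM + 0.1) scale, on which genes of low RPKM appear to change less than they do.

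**Figure D2:**
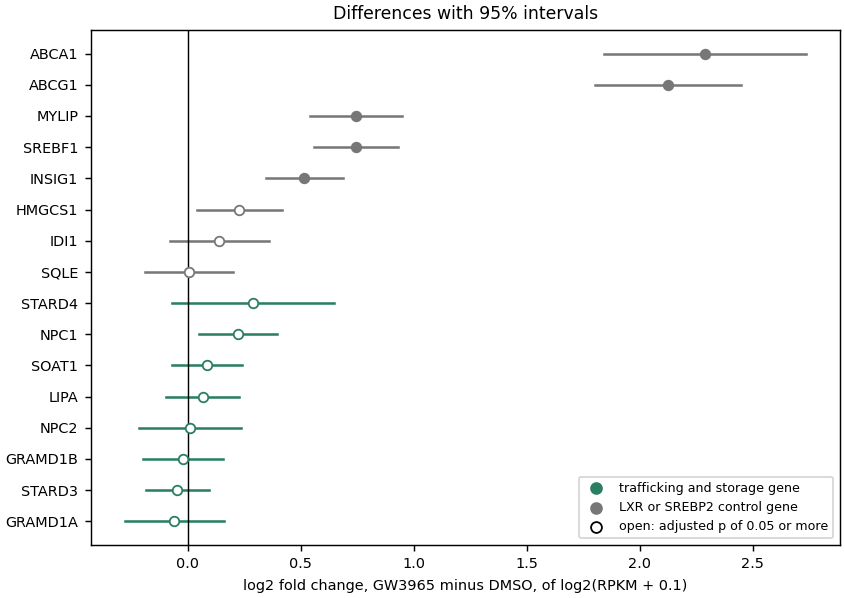
Log2 fold change, GW3965 minus DMSO, on the log2(RPKM + 0.1) scale with its 95% interval (n = 5 per group), for the 8 tested members (green) and 8 LXR or SREBP2 target genes (grey). Filled points passed the adjusted threshold of 0.05, which 5 grey genes and none of the green ones did.

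NPC1, the transporter in the lysosomal membrane, had the smallest p of the group. Its gene lies on the minus strand of chr18:23506184-23586898 (GRCh38). The 250 bases before its RefSeq start are shown because NPC1 and STARD4, shown further on, had the largest differences among the tested members. Capitals would mark a motif, and none of those searched was found in this window, chr18:23586507-23586756 on the minus strand (RefSeq, GRCh38.p14). The window lay inside the gene position given above, which is from GENCODE 29, so the 2 sources place the start differently.
NPC1: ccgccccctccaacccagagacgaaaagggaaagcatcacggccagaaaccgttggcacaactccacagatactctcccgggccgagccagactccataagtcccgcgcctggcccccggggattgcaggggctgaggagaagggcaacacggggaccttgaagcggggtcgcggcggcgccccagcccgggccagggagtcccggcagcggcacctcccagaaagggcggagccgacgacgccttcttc
The DMSO libraries 1 to 5 gave 15.4, 16.0, 17.6, 15.8 and 14.2 RPKM. The GW3965 libraries 1 to 5 gave 18.7, 18.0, 16.7, 17.4 and 21.4 RPKM. The groups overlapped through 1 library, since DMSO library 3 was above GW3965 libraries 3 and 4, and the other 4 DMSO libraries were below all of the GW3965 libraries. The mean went from 15.8 ± 1.23 to 18.5 ± 1.84 RPKM, a log2 fold change of 0.22 with an SE of 0.078 and a 95% interval from 0.05 to 0.39. This did not pass the adjusted threshold (limma, adjusted p = 0.553), and the exact permutation test of NPC1 alone gave an unadjusted two-sided p of 0.0238. Without the 3 libraries that stood apart, the log2 fold change of NPC1 was 0.21 (limma, adjusted p = 0.562). With the loss of any single library it lay between 0.16 and 0.26.

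NPC2, the soluble partner of NPC1, lies on the minus strand of chr14:74476192-74494177. The DMSO libraries 1 to 5 gave 20.0, 23.0, 24.6, 19.9 and 17.4 RPKM. The GW3965 libraries 1 to 5 gave 19.4, 20.1, 19.7, 21.0 and 25.1 RPKM. The lowest library of all was DMSO library 5 and the highest GW3965 library 5, and 4 of the 5 DMSO libraries were above the lowest GW3965 library. The mean was 21.0 ± 2.84 RPKM with DMSO and 21.0 ± 2.33 RPKM with GW3965, a log2 fold change of 0.01 with an interval from -0.22 to 0.23 (limma, adjusted p = 0.993).

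NPC1 and NPC2 varied together between libraries of one group, and their ratio did so less than either gene. The NPC1 to NPC2 ratio was 0.767, 0.698, 0.717, 0.792 and 0.819 in DMSO libraries 1 to 5. In GW3965 libraries 1 to 5 it was 0.965, 0.896, 0.847, 0.830 and 0.855. All 5 GW3965 libraries were above all 5 DMSO libraries, with means of 0.879 ± 0.0539 and 0.759 ± 0.0509. Any subset of these libraries is bound to separate in the same way, so leaving out the 3 that stood apart is no check here. The ratio was chosen after the values had been seen, so no test is given. Of 19774 other tested genes with reads in every library, 0.506% also had a ratio to NPC2 that was higher in every GW3965 library than in any DMSO library. Among the 28 pairs of tested members, 3 pairs had ratios that did not overlap between groups, namely NPC1 over NPC2, over GRAMD1A and over GRAMD1B. Over all pairs of tested genes with reads in every library, 1.88% had such ratios, in either direction, and the 3 pairs share NPC1.

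**Figure D3:**
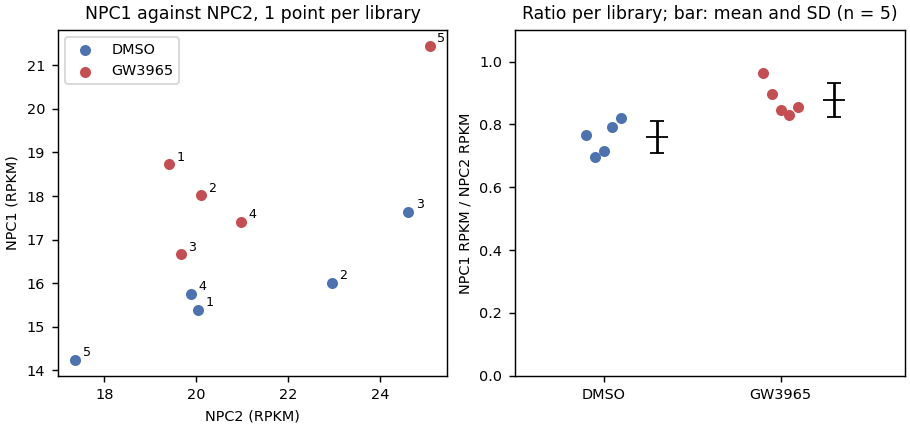
Left, NPC1 against NPC2 in RPKM, 1 point per library with its number. Right, the ratio of NPC1 to NPC2 per library with mean and SD (n = 5), on an axis that starts at 0. The DMSO ratios end at 0.819 and the GW3965 ratios begin at 0.830.

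LIPA, the lysosomal acid lipase that hydrolyses cholesteryl esters, lies on the minus strand of chr10:89213569-89414557. It ranged from 5.69 to 6.65 RPKM with DMSO and from 5.89 to 7.20 RPKM with GW3965. Only GW3965 libraries 4 and 5 were above the highest DMSO library. The means of 6.11 ± 0.432 and 6.41 ± 0.558 RPKM gave a log2 fold change of 0.06, with an interval from -0.10 to 0.23 (limma, adjusted p = 0.935).

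STARD4, a soluble carrier that moves cholesterol between membranes and a known SREBP2 target, had the largest difference among the tested members and the widest spread. It lies on the minus strand of chr5:111496033-111512590. The 250 bases before its RefSeq start, chr5:111512536-111512785 on the minus strand, are shown with CCAAT boxes, the binding sequence of NF-Y, in capitals.
STARD4: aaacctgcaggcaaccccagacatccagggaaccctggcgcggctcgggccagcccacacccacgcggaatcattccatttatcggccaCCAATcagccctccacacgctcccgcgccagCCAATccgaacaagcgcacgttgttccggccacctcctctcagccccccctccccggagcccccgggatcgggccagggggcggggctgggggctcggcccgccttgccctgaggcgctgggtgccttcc
The first CCAAT began 161 and the second 130 bases before the start. A CCAAT on either strand was held by 32.0% of 35116 promoter windows of 250 bases, so a window that holds one is common. The DMSO libraries 1 to 5 gave 6.84, 6.60, 5.48, 3.98 and 4.73 RPKM. The GW3965 libraries 1 to 5 gave 7.35, 8.16, 5.40, 5.55 and 7.16 RPKM. The groups overlapped, since DMSO libraries 1, 2 and 3 were above the lowest GW3965 library, and GW3965 libraries 1, 2 and 5 were above all DMSO libraries. The mean went from 5.53 ± 1.21 to 6.72 ± 1.20 RPKM, a log2 fold change of 0.29 with an SE of 0.16 and an interval from -0.07 to 0.65 (limma, adjusted p = 0.804). In both groups the libraries that stood apart on the first principal component were among the highest, with 6.84, 7.35 and 8.16 RPKM, and DMSO library 4, at the other end of that component with a score of -21.9, was the lowest of all. The part of this in the difference was not tested beyond leaving libraries out and a fit with that component as covariate. With this covariate the log2 fold change of STARD4 was 0.24 (limma, adjusted p = 0.429). Without the 3 that stood apart, with DMSO library 4 kept, the log2 fold change of STARD4 was 0.22 (limma, adjusted p = 0.742). Without single libraries it lay between 0.18, without DMSO library 4, and 0.37, without DMSO library 1 (limma, adjusted p = 0.814 and 0.560).

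STARD3, the START protein of late endosomes that tethers them to the endoplasmic reticulum, lies on the plus strand of chr17:39637065-39663484. It ranged from 4.86 to 5.75 RPKM with DMSO and from 4.78 to 5.40 RPKM with GW3965, and 0 GW3965 libraries were above the highest DMSO library. Its log2 fold change was -0.05, with the narrowest interval of the group, from -0.19 to 0.09 (limma, adjusted p = 0.944). STARD5, a soluble carrier related to STARD4, lies on the minus strand of chr15:81309053-81324183 and had only 35 to 97 reads per library. It lay between 0.160 and 0.361 RPKM with DMSO and between 0.209 and 0.375 RPKM with GW3965, so that the groups overlapped over most of their range. The means of 0.275 ± 0.0747 and 0.268 ± 0.0657 RPKM did not differ beyond the spread of the libraries (exact permutation test, two-sided, p = 0.873). On the opposite strand, exons of IL16 cover 4351 of the 6339 exon bases of STARD5, and whether the reads were counted by strand is not given in the sources used here, so STARD5 reads could include those of IL16. Of the summed RPKM of the 3 START genes, STARD4 took 49.5 ± 6.77% with DMSO and 55.4 ± 5.15% with GW3965, and STARD3 48.0 ± 6.28% and 42.4 ± 4.84% (n = 5).

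The GRAMD1 genes encode Asters, proteins of the endoplasmic reticulum that take up cholesterol from the plasma membrane. GRAMD1A, on the plus strand of chr19:34994784-35026471, ranged from 4.19 to 5.79 RPKM with DMSO and from 3.99 to 5.36 RPKM with GW3965. Its log2 fold change was -0.06, with an interval from -0.28 to 0.16 (limma, adjusted p = 0.957). GRAMD1B, on the plus strand of chr11:123358428-123627774, has been described as an LXR target in other cells. It measured 3.97, 4.56, 4.64, 4.53 and 3.98 RPKM in DMSO libraries 1 to 5. In GW3965 libraries 1 to 5 it measured 4.0, 4.19, 3.95, 4.23 and 5.03 RPKM. GW3965 library 5 was above all DMSO libraries, and the other 4 GW3965 libraries lay within the DMSO range or just under it. The log2 fold change was -0.02 and its interval, from 0.872- to 1.11-fold, held no change of the size of ABCA1 or ABCG1 (limma, adjusted p = 0.985).

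GRAMD1C, on the plus strand of chr3:113828182-113947174, was the least abundant member, with 44 to 116 reads per library. The DMSO libraries 1 to 5 gave 0.272, 0.168, 0.231, 0.155 and 0.236 RPKM. The GW3965 libraries 1 to 5 gave 0.399, 0.390, 0.245, 0.231 and 0.315 RPKM. Again 3 GW3965 libraries, numbers 1, 2 and 5, were above all DMSO libraries, and libraries 3 and 4 overlapped with them. The means of 0.213 ± 0.0493 and 0.316 ± 0.0784 RPKM stood in a ratio of 1.49 (exact permutation test, two-sided, unadjusted p = 0.0476). The same unadjusted test gave a p under 0.05 for 3.32% of the 27135 genes above 0 and under the filter, and for 4.54% of the 10483 of them with a mean of at least 0.1 RPKM. Within a fit over all 47537 genes with a value above 0, the log2 fold change of GRAMD1C was 0.41 with an interval from -0.04 to 0.85 and did not pass (limma, adjusted p = 0.913). The exact p rose above 0.05, to between 0.0635 and 0.0952, without DMSO library 2, 3, 4 or 5 or without GW3965 library 1, 2 or 5. Libraries 1 of both groups and GW3965 library 2, which stood apart on the first principal component, held the highest GRAMD1C values of their groups, and without these 3 the means were 0.198 and 0.264 RPKM (n = 4 and 3, exact permutation test, p = 0.143). GRAMD1C took 2.27 ± 0.599% of the summed RPKM of the 3 GRAMD1 genes with DMSO and 3.41 ± 0.803% with GW3965, beside 51.7 ± 2.64% and 50.4 ± 1.13% for GRAMD1A and 46.0 ± 2.89% and 46.2 ± 1.82% for GRAMD1B (n = 5).

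SOAT1, the acyltransferase that esterifies cholesterol for storage, lies on the plus strand of chr1:179293714-179358680. It ranged from 3.37 to 4.06 RPKM with DMSO and from 3.44 to 4.02 RPKM with GW3965. The highest library of all was DMSO library 2, and 0 GW3965 libraries were above it. The means of 3.60 ± 0.295 and 3.82 ± 0.223 RPKM gave a log2 fold change of 0.08, with an interval from -0.07 to 0.24 (limma, adjusted p = 0.893). Its paralogue SOAT2, which esterifies cholesterol in liver and intestine, had 21 reads over all DMSO libraries and 13 over all GW3965 libraries.

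**Figure D4:**
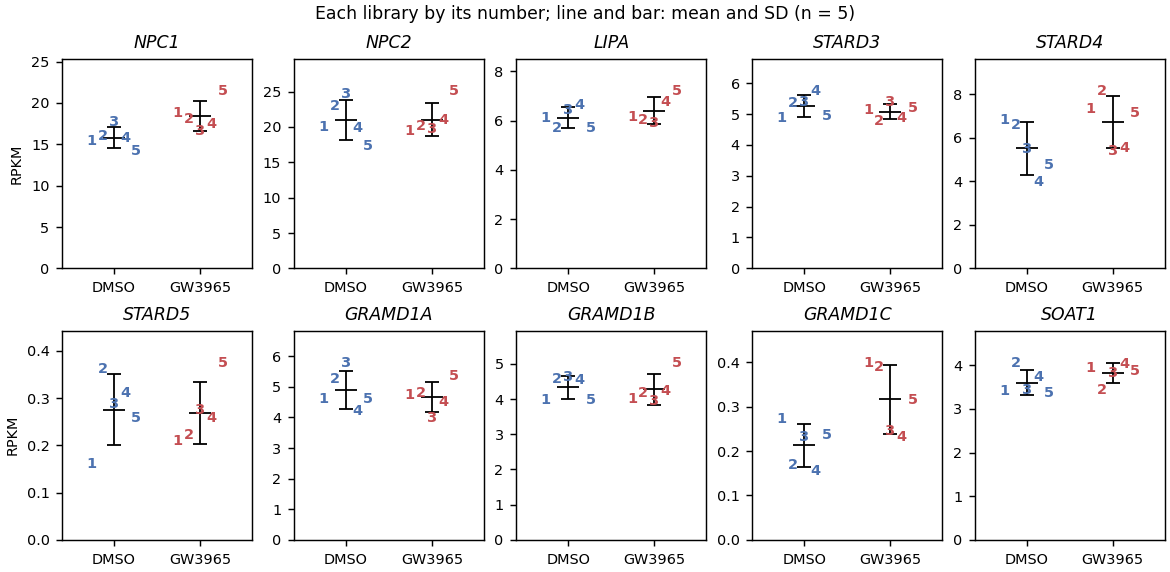
RPKM of each of the 10 genes by group, on axes that start at 0, with each library drawn as its number and the mean and SD (n = 5) in black. The groups overlap in every panel. GW3965 library 5 is highest among the GW3965 libraries for NPC1, NPC2, LIPA, STARD5, GRAMD1A and GRAMD1B, and libraries 1 and 2 are for STARD4 and GRAMD1C.

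The deviations of NPC1 from its group means over the 10 libraries were most like those of MFGE8 (Pearson's r = 0.971), TMEM120A (r = 0.963) and PBX2 (r = 0.953). These are descriptions over 10 libraries, chosen as the highest among all tested genes, and the other tested members reached highest values between 0.939 and 0.985. Within the members, the deviations of NPC1 went with those of NPC2 (r = 0.862), GRAMD1B (r = 0.847) and GRAMD1A (r = 0.807), while with SOAT1 r was 0.132. All of these share the library and its scaling factor. The log2 fold changes of MFGE8, TMEM120A and PBX2 were 0.14, 0.06 and -0.01, and none passed (limma, adjusted p = 0.567, 0.935 and 0.992).

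The promoter windows of the group were searched on both strands for TCACNCCAC, a core of the sterol regulatory element, for CCAAT, for the E-box CACGTG and for the nuclear receptor half-site AGGTCA, alone or as a direct repeat with 4 bases between, the arrangement bound by LXRs with RXR. RefSeq windows were matched for 9 of the 10 genes, with 13 start sites, and GRAMD1B was the other. CCAAT was found for STARD4, STARD5, NPC2, LIPA, SOAT1 and GRAMD1C, and AGGTCA for GRAMD1A, where 12.1% of all 35116 windows hold it. The GRAMD1C window, chr3:113897250-113897499, lay inside the gene position given above, as did those of NPC1 and NPC2. For LIPA, CCAAT was found at start sites 2 and 3 and not at start site 1, the outermost. These letters of the sterol element, the E-box and the direct repeat were in none of the 13 windows, against shares of 0.883%, 6.34% and 0.0142% of all windows. A match or its lack describes these 250 bases and says nothing of binding.

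Beyond the 10 members, 67 genes were set in 6 lists by compartment, protein family or function, and 56 of them were tested. Not all of them carry or store cholesterol, since the lists also hold general lysosomal hydrolases and all other START domain genes. None passed the adjusted threshold, where 0.157% of all tested genes did. An unadjusted p under 0.05 was found for 4 of the 56 (CTSD, CTSL, OSBPL5 and GRAMD2B, all positive), a share near the 6.99% of all tested genes. Of the 56 differences 37 were positive, against 51.1% over all tested genes, and their median log2 fold change was 0.04, beside 0.003. Among the lysosomal membrane and sterol-sensing genes, 5 of 7 were positive, from TMEM97, which binds NPC1, at -0.04 to the membrane glycoprotein LAMP2 at 0.18. Of the lysosomal hydrolases and activators 13 of 17 were positive, from the galactosidase GLA at -0.10 to the protease CTSL at 0.21. Of the other START domain genes 3 of 8 were positive, from STARD8 at -0.25 to the ceramide carrier COL4A3BP at 0.18. The oxysterol-binding proteins and their VAP anchors had 10 of 14 positive, from OSBPL11 at -0.11 to OSBPL5 at 0.16.

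The other GRAM domain genes and sterol carriers had 4 of 6 positive, from C2CD2L at -0.12 to GRAMD2B at 0.30. GRAMD2B, a GRAM domain gene that lacks the sterol-binding domain of the Asters, had the smallest p of the 56. It ranged from 5.87 to 7.04 RPKM with DMSO and from 7.44 to 8.54 RPKM with GW3965, with means of 6.41 ± 0.463 and 7.92 ± 0.433 RPKM (n = 5). The groups did not overlap, as in 1.84% of all tested genes, and GRAMD2B was picked out of 56. It did not pass the adjusted threshold (limma, adjusted p = 0.150). In the turnover of cholesteryl esters 2 of 4 genes were positive, from the hormone-sensitive lipase LIPE at -0.27 (limma, adjusted p = 0.833) to the lipase CEL at 0.17 (limma, adjusted p = 0.947).

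For scale, 8 target genes of LXRs or of SREBP2 were read from the same fit. Of these, 5 were higher and passed, namely ABCA1, ABCG1, SREBF1 (log2 fold change 0.74), MYLIP, which encodes a ubiquitin ligase (0.74), and INSIG1 (0.52). The synthesis genes HMGCS1, IDI1 and SQLE did not pass, with log2 fold changes of 0.23, 0.14 and 0.005. INSIG1 fell short of the threshold in 14 of the 23 alternative settings, MYLIP in 3 and SREBF1 in 2. Without the 3 libraries that stood apart, only ABCA1 and ABCG1 passed, and the adjusted p (limma) was 0.0897 for SREBF1, 0.101 for MYLIP and 0.145 for INSIG1, with log2 fold changes of 0.71, 0.68 and 0.53. STARD4 and NPC1, which are known to respond to SREBP2, had log2 fold changes of 0.29 and 0.22, and neither passed. The 4 SREBP2 targets INSIG1, HMGCS1, IDI1 and SQLE had values from 0.005 to 0.52, of which only INSIG1 passed. Whether SREBP2 had a part in any of these differences was not tested.

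Exons of several members overlap those of other genes on the opposite strand: 604 bases of NPC1 with RMC1, 103 of NPC2 with ISCA2, 65 of LIPA with IFIT2, 124 of STARD4 with STARD4-AS1 and 170 of GRAMD1C with AC128687.2. Windows of 50 bases shared with other genes made up at most 1.29% of any member, for NPC1.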

How the data were processed

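RNA of PC3 cells was sequenced by the authors from rRNA-depleted, stranded libraries (the labels name polyA RNA) as single reads of 50 bases, aligned with Hisat2, counted per gene and deposited as RPKM values. The methods name mm10, while the submitters' processing notes name hg38 and 100% of the identifiers are human. Those notes also name HISAT2 2.1.0 and HTSeq 0.11.2. The annotation release and the strand setting of the counting are not given in the sources used here.

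Whole reads were recovered as the smallest whole numbers in the ratios of a gene's values (100% of values above 0, to within 0.001 reads), and the library factors in the RPKM values were median-of-ratios size factors. No pair of libraries was near-identical (chi-square per degree of freedom from 6.95 to 75.7). Groups were taken from the sample titles.

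limma 3.58.1 in R 4.3.3 (lmFit, eBayes with trend) was fitted to log2(RPKM + 0.1) for the 20402 genes whose mean reached 0.5 RPKM. Tests were two-sided, p-values were adjusted by Benjamini and Hochberg's method over these genes, and the threshold was 0.05. The 2 members under that filter were compared by an exact permutation test over 252 labellings, whose smallest p is 0.00794. The members and lists were chosen with earlier results of these data known. Named are the members, list genes past the threshold or at either end of a list, the target genes, and the 3 genes most like the member with the smallest p. SOAT2, CTSD and the overlapping genes were named after their values were seen. Positions are from GENCODE 29 (GRCh38), whose gene lengths matched those in the RPKM values for 7866 of 19722 genes compared, among the members STARD4, STARD5 and SOAT1. Alternatives were pseudocounts, filters, scalings, a replicate block, no trend, library weights, voom on the recovered reads and the loss of each library. The covariates, the joint loss of 3 libraries and the fit of the low genes without a filter were added after the data were seen. Results that need some items are not reported here.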

Additional observations from a re-analysis of the deposited data

Results flagged for a closer look

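In 4 of 68 groups of 5 libraries, over the tested and low members, the list genes named in the report with a test and the 3 genes most like NPC1, 1 library lay far from the other 4, by Dixon's ratio of its gap to the whole range on the log2(RPKM + 0.1) scale (critical value 0.71). Chance flags about 1 in 20 groups, here about 3.4. The list genes that are not named were not examined. GRAMD1B was at 5.03 RPKM in GW3965 library 5, against 3.95 to 4.23 RPKM in the other GW3965 libraries (ratio 0.720). STARD8 was at 0.756 RPKM in DMSO library 1, against 1.08 to 1.24 RPKM in the other DMSO libraries (ratio 0.719). LIPE was at 0.795 RPKM in GW3965 library 2, against 0.486 to 0.542 RPKM in the other GW3965 libraries (ratio 0.786). HMGCS1 was at 25.7 RPKM in GW3965 library 5, against 20.3 to 21.1 RPKM in the other GW3965 libraries (ratio 0.831).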

How the results depend on the processing

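The counts of members and of genes of the 6 lists past the threshold were 0 in all 23 alternative settings, with 8 members and 56 list genes tested in the main fit. NPC1, LIPA, STARD4 and SOAT1 stayed positive in all 23, NPC1 between 0.16 and 0.36 and STARD4 between 0.16 and 0.42. Their lowest adjusted p (limma), 0.272 for NPC1 and 0.429 for STARD4, came with the first principal component as covariate. With the 7SL share as covariate NPC1 was 0.18 and STARD4 0.19 (limma, adjusted p = 0.874 and 0.999). The signs of the members near 0 turned. NPC2 was -0.0165 with quantile normalization, -0.0123 with library weights, -0.0256 with the 7SL share as covariate and from -0.0561 to 0.0691 without single libraries. Scaling to the same sum of RPKM moved the median of all genes to 0.14, and STARD3, GRAMD1A and GRAMD1B to 0.0873, 0.0750 and 0.114. The upper ends of the ranges of NPC1 and STARD4, 0.36 and 0.42, came from this scaling too. Without single libraries GRAMD1A lay between -0.113 and 0.00121, GRAMD1B between -0.0799 and 0.00606, and the difference of STARD5 between -0.0365 and 0.0138 RPKM. Of the 2 members under the filter, 1 had an unadjusted exact p under 0.05, and 0 did under the replicate block, where GRAMD1C had the smallest p that 5 pairs allow (exact sign-flip, 0.0625), 0 in limma without a filter, 0 without the 3 libraries that stood apart, and 0 to 1 without single libraries. The 32 genes called among all became 21 without a filter, 20 without trend, 56 with library weights, 21 with the 7SL share and 146 with the first principal component as covariate, 18 without the 3 libraries that stood apart, 16 with the replicate block, and 17 to 38 without single libraries. The 5 LXR or SREBP2 targets called became 3 with the same sum of RPKM, 2 with the replicate block (adjusted p 0.0643 for SREBF1, 0.0724 for MYLIP and 0.180 for INSIG1) and 2 without the 3 libraries that stood apart. The cause was not tested. Libraries of the same number correlated between -0.138 and 0.160, and 1 of 5 correlated best with its own number, so the numbers were not taken as pairs. Depth limits STARD5 and GRAMD1C, with at most 116 reads per library.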
